A study of Arabidopsis thaliana with 12 samples.

Results

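The mRNA libraries of this study of Arabidopsis thaliana inflorescences carry either AI or FLW in the headers of their value columns, and the data below compare these sets. All 8 mRNA libraries were used, of 12 libraries in the series, with 4 in the AI set and 4 in the FLW set. Each set held 2 libraries of wild-type plants (accession Col, Columbia) and 2 of amiR-SEAP1 plants, which carry in the Columbia background an artificial miRNA, an engineered small RNA against a chosen transcript, here SEAP1. Plants of both genotypes grew in 16 h of light and 8 h of dark at 22 °C with no treatment, and RNA was extracted from flower inflorescences with Trizol. No source used here gives the meaning of AI and FLW, the hour and stage of collection or the number of plants. The promoter that drives the artificial miRNA and the number of lines are not given either, and the amiR-SEAP1 headers read R155 in the AI set and R15 in the FLW set. SEAP1 is under that name in no row of the reference table, so the level of the targeted gene is not analysed here.

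An Arabidopsis inflorescence carries a meristem and flowers of every stage up to open flowers and young fruits, so its RNA is a mixture whose composition shifts with the stages collected. Tapetum genes act in young anthers, where they supply the pollen wall, and genes of the pollen tube act late, in maturing pollen. Clock genes peak at fixed hours of the day, with CCA1 and LHY in the morning and PRR5, ELF4 and FKF1 later, so their levels differ between samples taken at different hours. In bulk RNA, fewer cells of a type and less RNA per cell cannot be told apart.

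The values are FPKM, fragments scaled for transcript length and library total, for 33610 gene IDs, of which 20743 had a mean of at least 1 FPKM and were tested. FPKM summed to 680667 to 715611 per library, and steps between low values placed relative depth within a factor of 1.16. Both libraries of a pair, that is of 1 genotype in 1 set, differed by 1.45% to 1.73% (coefficient of variation at 300 to 1000 FPKM times kilobases) and by 8.89% to 9.31% at 3 to 10, a spread that fell as the level rose, as the sampling of reads does. Between the sets the same measure was 17.4% in wild type and 12.6% in amiR-SEAP1. Each pair thus counts as 1 sample, and a mean ± SD refers to n = 2 pairs per set, 1 per genotype. That SD holds the difference between the genotypes, and the spread of replicates within a set cannot be estimated. The FLW set holds replicates 1 and 2 and the AI set replicates 3 and 4, so the set, the replicate numbers and any difference in growth, collection or sequencing cannot be told apart. No label says that the libraries hold different plants, and p-values therefore measure only how these samples spread, and that spread may be technical.

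The first principal component, with 45.1% of the variance, separated AI from FLW, and the second, with 36.0%, the genotypes. The genotypes lay farther apart in the AI set than in the FLW set on the second component.

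**Figure D1:**
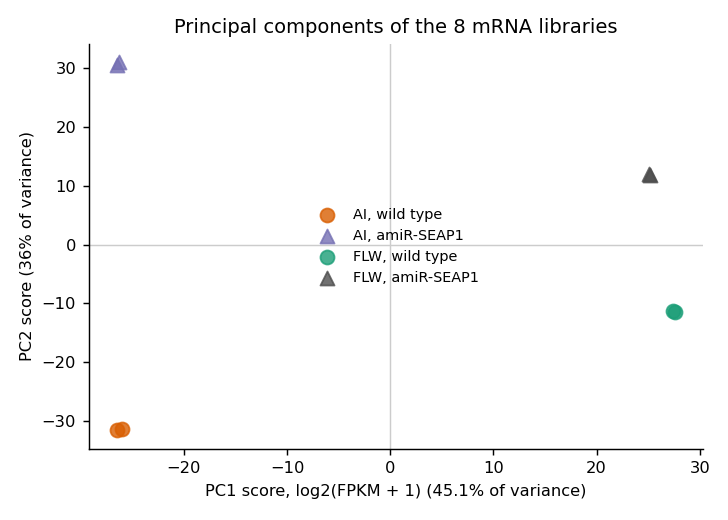
Principal component scores of the 8 libraries from log2(FPKM + 1) of the 20743 genes tested, with the first component (45.1% of the variance) on the x axis and the second (36.0%) on the y axis. The AI libraries lie at the left and the FLW libraries at the right, and the 2 libraries of each pair fall on nearly the same point.

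Genes were called with limma on log2(FPKM + 1), with genotype as a covariate and a correlation of 0.7 within a pair, at an FDR of 0.05. By this test 2791 genes were higher in FLW (13.5% of those tested) and 2444 were lower (11.8%), or 25.2% in either direction. With pairs averaged before the test, limma called 0 genes in either direction, although 2366 higher and 1944 lower genes had an unadjusted p under 0.05 and the smallest adjusted p was 0.0623. The adjusted p-values below come from the test with the pair correlation, which still draws on the small noise within pairs, so they are too small to the extent that pairs are 1 sample. Sizes in each genotype are therefore given beside the calls, and "higher" or "lower" used of a gene without a value means called by that test. In 3731 genes (18.0%) all FLW libraries lay above all AI libraries, and in 3294 (15.9%) they lay below.

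Large set differences were only partly shared by the genotypes. Between the pair means, 695 genes differed at least 2-fold in wild type (452 higher and 243 lower in FLW) and 720 in amiR-SEAP1 (587 and 133). Of these, 220 did so in the same direction in both, which is 31.7% of the wild-type list and 30.6% of the amiR-SEAP1 list, and 10 did so in opposite directions. The shared genes were 190 higher in FLW (0.916% of those tested) and 30 lower (0.145%). Across all genes tested, which are not independent replicates, the wild-type and amiR-SEAP1 set differences had a Pearson r of 0.453.

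**Figure D2:**
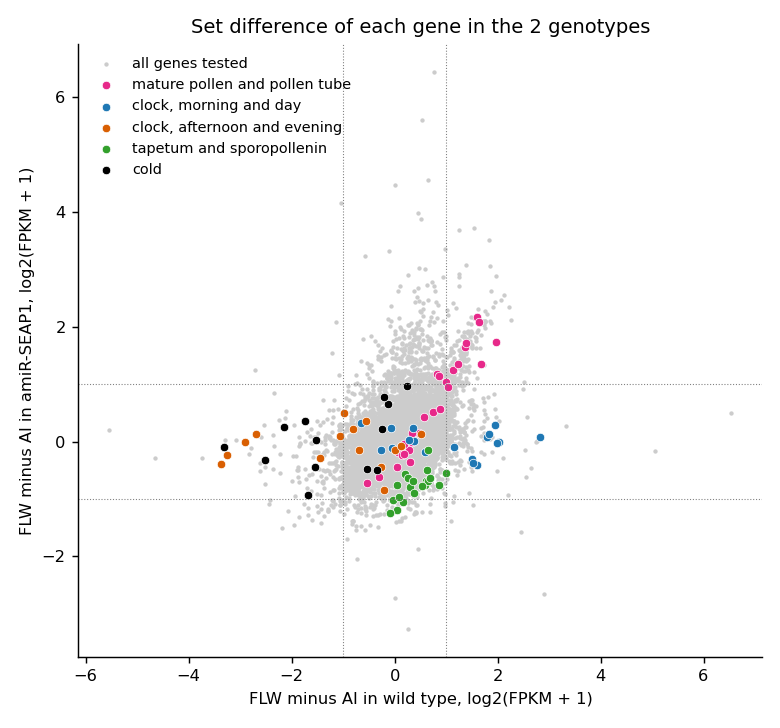
FLW minus AI in log2(FPKM + 1) for each of the 20743 genes tested, in wild type on the x axis and in amiR-SEAP1 on the y axis, with dotted lines at a 2-fold difference. Mature pollen genes extend toward the upper right, clock and cold genes spread along the x axis near 0 on the y axis, and the tapetum genes lie below 0 on the y axis.

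Most of the late pollen genes tested were higher in the FLW set. Of 28 genes of mature pollen and the pollen tube, 27 were tested, all but the sperm fusion gene HAP2, and 16 were higher in FLW, 2 were lower and 9 were not called. Calls made up 66.7% of those tested, against 25.2% over all genes tested. The median difference was 0.63 on the log2 scale (0.75 in wild type and 0.51 in amiR-SEAP1), against 0.02 over all genes tested. In both genotypes 9 members were at least 2-fold higher, as were 0.916% of all genes tested. Summed over the list, FPKM was 2284 and 1841 in the AI pairs of wild type and amiR-SEAP1 and 4095 and 2927 in the FLW pairs.

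AGP11, an arabinogalactan protein gene of pollen grains and tubes, measured 101 and 109 FPKM in the AI wild-type libraries, 89.4 and 88.9 in AI amiR-SEAP1, 406 and 415 in FLW wild type and 299.0 and 299.1 in FLW amiR-SEAP1. Every FLW library lay far above every AI library, at 354.6 ± 78.6 against 96.9 ± 11.02 FPKM, a difference of 1.85 ± 0.07 on the log2 scale (SE, adjusted p = 3.88e-06). Its close relative AGP6 measured 188 and 197, 166 and 164, 611 and 626, and 416 and 429 FPKM in the same order (1.51 ± 0.08, adjusted p = 7.5e-06), again with no overlap. VGDH1, a pectin methylesterase gene that may share reads with its close relative VGD1, measured 139 and 141 FPKM in AI wild type, 91.2 and 90.2 in AI amiR-SEAP1, 315 and 306 in FLW wild type and 216 and 218 in FLW amiR-SEAP1 (1.2 ± 0.05, adjusted p = 3.88e-06). Its difference was 1.14 in wild type and 1.25 in amiR-SEAP1, with no overlap. PRK2A, a receptor kinase gene of the pollen tube tip, rose from 54.1 and 53.2 FPKM in AI wild type to 106 and 111 in FLW wild type, and from 37.4 and 36.3 to 76.4 and 77.2 in amiR-SEAP1. AT4G39110 rose by 1.23 in wild type and 1.35 in amiR-SEAP1. ANX2, a receptor kinase gene that keeps the growing tube intact, the hexose transporter gene STP11, the calcium-dependent kinase gene CPK17 and BCP1 were the other members at least 2-fold higher in both genotypes, by 1.5, 1.86, 1.55 and 1.88. AGP6, STP11 and BCP1 are outside the naming rule and were chosen after their values were seen.

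The members of the list did not move as 1 block. ADF7 and ADF10 (actin depolymerizing factors), PRF4 (a profilin) and ACT12 (an actin) differed by 0.06, -0.06, -0.04 and -0.02, and none was called. PRF5, another profilin gene, and TIP1;3, a tonoplast channel gene, were lower in FLW, by -0.46 ± 0.08 (adjusted p = 0.00319) and -0.63 ± 0.08 (adjusted p = 0.00116). TIP1;3 measured 62.7 and 64.2 FPKM in AI wild type, 47.9 and 50.1 in AI amiR-SEAP1, 43.7 in each library of FLW wild type, and 30.8 and 27.9 in FLW amiR-SEAP1. All FLW libraries of TIP1;3 lay below all AI libraries, whereas the sets of PRF5 overlapped.

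Among the 190 genes at least 2-fold higher in both genotypes were other genes known from pollen and pollen tubes, chosen here after their values were seen. They include the cation/proton exchanger gene CHX23 (17.1 and 16.9 FPKM in AI wild type, 10.3 and 10.02 in AI amiR-SEAP1, 58.1 and 61.5 in FLW wild type, 52.5 and 53.2 in FLW amiR-SEAP1), the fasciclin-like gene FLA3 (difference 1.93) and the signal peptide gene RALFL15 (1.86). COBL10, which acts in guided tube growth, differed by 1.48, the actin-binding gene PLIM2a by 1.52 and the syntaxin gene SYP131 by 1.3. No library of the AI set reached an FLW library in any of these genes. Their choice from genes at least 2-fold higher in both genotypes makes this likely, so it adds no support.

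Genes that act earlier in the anther did not follow the late pollen genes, and their direction differed between the genotypes. Of 21 tapetum and sporopollenin genes, 20 were tested (all but DYT1) and 1 was called, SWEET8, a sugar transporter gene of the tapetum, lower in FLW. That is 5.0% of those tested, against 25.2% over all genes tested. The list median was 0.37 in wild type, with 18 members above 0, and -0.75 in amiR-SEAP1, with 0 members above 0. In 17 members the set difference had opposite signs in the genotypes with no overlap between the sets in either, which was so for 3492 of all genes tested (16.8%). AMS, a transcription factor gene of the tapetum, measured 29.1 and 28.5 FPKM in AI wild type, 45.5 and 44.7 in FLW wild type, 53.2 and 51.7 in AI amiR-SEAP1 and 37.2 and 36.9 in FLW amiR-SEAP1. AI wild type was the lowest pair and AI amiR-SEAP1 the highest, and the FLW pairs lay between them. CYP703A2, which hydroxylates fatty acids for sporopollenin, had pair means ranked in the same way. It measured 18.8 and 19.8, 31.3 and 30.5, 32.1 and 32.2, and 20.4 and 19.2 FPKM in the pairs as listed for AMS. Its AI wild-type libraries overlapped with those of FLW amiR-SEAP1, and FLW wild type lay near AI amiR-SEAP1. SWEET8 measured 39.1 and 40.2 FPKM in AI wild type, 62.9 and 60.8 in AI amiR-SEAP1, 37.5 and 37.1 in FLW wild type and 25.1 and 26.0 in FLW amiR-SEAP1 (-0.67 ± 0.20, adjusted p = 0.043). Its call was lost on leaving out any 1 of the 8 libraries (adjusted p = 0.0567 to 0.0764).

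Of 9 pollen coat genes, 8 were tested, with medians of 0.40 in wild type and -0.46 in amiR-SEAP1. AT1G75930 (EXL6), an extracellular lipase gene, was the 1 called, with 184 and 183 FPKM in AI wild type, 206 and 204 in AI amiR-SEAP1, 168 and 167 in FLW wild type and 110 and 112 in FLW amiR-SEAP1 (adjusted p = 0.0254). The amiR-SEAP1 libraries held the largest part of that difference (-0.88, against -0.13 in wild type), and without amiR-SEAP1 replicate 4 the call was lost (adjusted p = 0.0505). Of 19 early anther and meiosis genes, 13 were tested and 0 were called or had an unadjusted p under 0.05. Calls thus made up 12.5% of the pollen coat genes tested and 0.0% of the early anther genes, against 25.2% over all genes tested. The meiotic cohesin gene SYN1 had 1.29 and 1.32 FPKM in AI wild type, 1.73 and 1.88 in AI amiR-SEAP1, 2.63 and 2.81 in FLW wild type and 1.94 and 1.78 in FLW amiR-SEAP1. Its sets overlapped, and the anther signal gene TPD1 differed by 0.32 (adjusted p = 0.137).

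**Figure D3:**
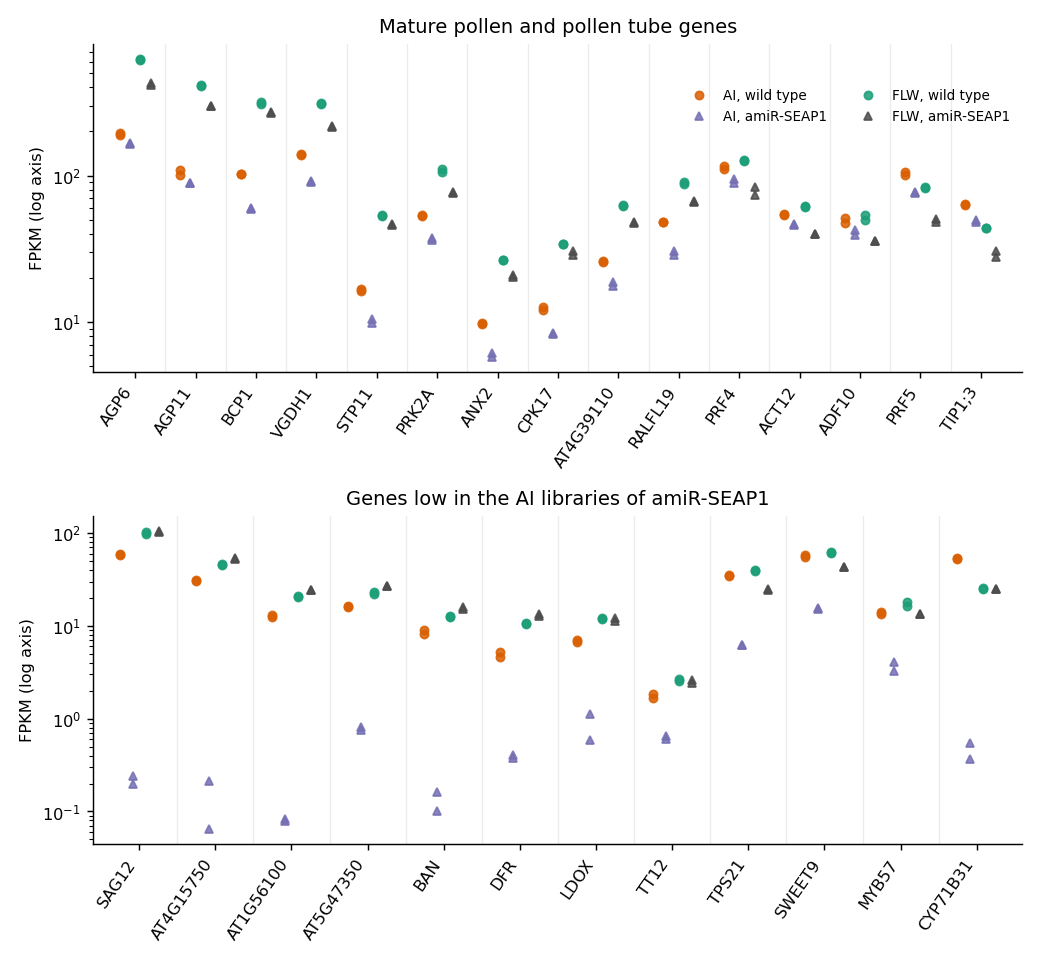
FPKM on a log axis of single libraries for genes of mature pollen and the pollen tube (top) and for genes low in the AI libraries of amiR-SEAP1 (bottom), with 1 point per library, circles for wild type and triangles for amiR-SEAP1. In the top panel the FLW points of AGP6, AGP11, BCP1 and STP11 lie above all AI points, whereas those of PRF4 and ACT12 do not, and in the bottom panel the AI amiR-SEAP1 points lie below all others.

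Meristem and organ identity genes differed by less. Of 19 meristem and inflorescence genes, 17 were tested (CLV3 and UFO were not), 4 were higher in FLW and 0 lower. The share called was 23.5%, against 25.2% over all genes tested. KNAT1, a homeobox gene of the meristem and the stem, measured 32.2 and 32.1 FPKM in AI wild type, 31.6 and 30.2 in AI amiR-SEAP1, 43.7 and 44.0 in FLW wild type and 56.4 and 55.2 in FLW amiR-SEAP1 (0.63 ± 0.09, adjusted p = 0.00125). All FLW libraries lay above all AI libraries, as they did for RPL, a partner of KNAT1 (0.44 ± 0.07, adjusted p = 0.00248). AGL24 and SVP, MADS-box genes of the young floral meristem, were higher by 0.51 and 0.47, although their AI amiR-SEAP1 libraries overlapped with FLW wild type. The stem cell genes STM, WUS and CLV1 differed by 0.05, -0.26 and 0.14 and were not called.

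Of 15 floral organ identity genes, 14 were tested, 2 were higher (SHP2 and JAG) and 4 lower in FLW (AT3G02310, which is SEP2, with SEP3, AP3 and AG). SEP3, a cofactor of the other organ identity proteins, measured 196 and 193 FPKM in AI wild type, 185 and 183 in AI amiR-SEAP1, 154 and 157 in FLW wild type and 125 and 129 in FLW amiR-SEAP1 (-0.43 ± 0.06, adjusted p = 0.00163). AP3, which specifies petals and stamens, was lower by -0.31 ± 0.07 (adjusted p = 0.0102), and its partner PI, at -0.29, was not called (adjusted p = 0.0507). SHP2, a gene of carpels and the valve margin of the fruit, measured 28.4 and 28.2 FPKM in AI wild type, 20.3 in each AI amiR-SEAP1 library, 32.1 and 31.5 in FLW wild type and 30.7 and 30.9 in FLW amiR-SEAP1 (0.37 ± 0.09, adjusted p = 0.0151). AI amiR-SEAP1 was thus the lowest pair. Of 17 gynoecium and ovule genes, 16 were tested and NGA1, a regulator of style development, was the 1 called, lower by -0.28 (adjusted p = 0.0162). Calls made up 42.9% of the organ identity genes tested and 6.25% of the gynoecium and ovule genes, against 25.2% over all genes tested.

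Some genes of flower opening, nectaries and floral scent were low in the AI libraries of amiR-SEAP1. All 14 were tested, 5 were higher in FLW and 0 lower, and the median was 0.03 in wild type and 0.51 in amiR-SEAP1. Calls made up 35.7% of this list, against 25.2% over all genes tested. TPS21, which makes the floral sesquiterpene caryophyllene, measured 35.7 and 34.8 FPKM in AI wild type, 6.16 and 6.17 in AI amiR-SEAP1, 40.0 and 39.3 in FLW wild type and 24.7 and 24.3 in FLW amiR-SEAP1 (1.00 ± 0.29, adjusted p = 0.0338). SWEET9, the sugar exporter gene of nectaries, measured 57.6 and 55.7, 15.5 and 15.1, 61.3 and 62.3, and 42.7 and 43.5 FPKM in the same order (0.78 ± 0.23, adjusted p = 0.0362). In both genes the wild-type sets lay within 0.17 of each other on the log2 scale and AI amiR-SEAP1 was far below every other pair. MYB57, a stamen and petal regulator, AT3G25810 and ARF6, an auxin response factor gene of flower maturation, were the other members called. CYP71B31, a cytochrome P450 gene, measured 52.8 and 53.8 FPKM in AI wild type and 0.548 and 0.368 in AI amiR-SEAP1, with 24.7 to 25.6 in the FLW libraries, so it was lower in FLW by size in wild type (-1.05) and higher in amiR-SEAP1 (4.14) and was not called. With 1 library left out, the calls of TPS21 and SWEET9 were lost in 6 of 8 cases each (adjusted p = 0.0502 to 0.0625 and 0.054 to 0.0657), that of MYB57 in 3 and that of AT3G25810 in 2.

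Seed coat pigment genes were likewise lowest in AI amiR-SEAP1, although their other pairs were ordered differently. Of 19 seed and embryo genes, 7 were tested and 3 were higher in FLW, BAN, TT12 and TT2, all of proanthocyanidin synthesis in the seed coat. The call of TT2 was lost without any 1 of 5 libraries (adjusted p = 0.0659 to 0.085). BAN, the reductase that gives the building blocks of these tannins, measured 8.92 and 8.19 FPKM in AI wild type, 0.1004 and 0.163 in AI amiR-SEAP1, 12.7 and 12.5 in FLW wild type and 15.8 and 15.2 in FLW amiR-SEAP1 (2.19 ± 0.58, adjusted p = 0.0242). The storage protein genes SESA1 and CRA1 and the oil body gene OLEO1 were not tested and stayed at or below 0.148 FPKM in every library. In the flavonoid pathway 16 of 17 genes were tested, and 5 were higher and 5 lower in FLW. Calls made up 42.9% of the seed and embryo genes tested and 62.5% of the flavonoid genes, against 25.2% over all genes tested. The flavonoid genes higher were of the late, anthocyanin and tannin branch, with DFR at 5.26 and 4.62, 0.377 and 0.404, 10.5 and 10.9, and 12.7 and 13.5 FPKM in AI wild type, AI amiR-SEAP1, FLW wild type and FLW amiR-SEAP1 (2.16 ± 0.41, adjusted p = 0.0065), and with LDOX, UF3GT and the regulators TT8 and AT1G56650 (PAP1). Those lower were TT4 and TT5 of the first steps, the flavonol genes FLS1 and MYB111, and UGT78D2, which adds glucose. FLS1, flavonol synthase, measured 273 in each AI wild-type library, 218 and 223 in AI amiR-SEAP1, 164 in each FLW wild-type library and 153 and 149 FPKM in FLW amiR-SEAP1 (-0.64 ± 0.06, adjusted p = 0.000132). The sets of FLS1 did not overlap.

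The 15 genes with the largest higher difference under the naming rule were led by SAG12, and several were far lower in AI amiR-SEAP1 than in any other pair. SAG12, a cysteine protease gene of senescing tissue, measured 57.4 and 60.03 FPKM in AI wild type, 0.196 and 0.243 in AI amiR-SEAP1, 98.7 and 102 in FLW wild type and 103 and 105 in FLW amiR-SEAP1 (3.60 ± 0.96, adjusted p = 0.0254). AT4G15750, AT1G56100, AT2G47895 and AT5G47350 were likewise lowest in AI amiR-SEAP1, at 0.064 to 0.820 FPKM, and at 7.43 to 31.3 in AI wild type. AT3G01345 differed from these, with 103 and 100.2 FPKM in FLW wild type and at most 1.21 in any other library (adjusted p = 0.0363). Without any 1 of 7 libraries the call of AT3G01345 was lost (adjusted p = 0.0516 to 0.0673), without any 1 amiR-SEAP1 library that of AT4G15750 (0.0554 to 0.0576), and without replicate 3 or 4 of amiR-SEAP1 that of AT5G47350 (0.0516 and 0.0521). The others were at least 2-fold higher in both genotypes, among them scpl38, of the serine carboxypeptidase-like family (2.46), NAS3, a nicotianamine synthase gene of metal transport (2.42), and EXT4, an extensin gene (2.22). NAS3 measured 1.93 and 1.85 FPKM in AI wild type, 0.637 and 0.487 in AI amiR-SEAP1, 10.4 and 10.1 in FLW wild type and 10.99 and 10.02 in FLW amiR-SEAP1 (± 0.20 SE, adjusted p = 7.28e-05). The remaining 6 were AT5G20390, AT1G62333, AT4G33970, AT1G49490, AT5G60615 and AT1G01980, with differences of 2.25 to 2.68.

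AI amiR-SEAP1 and AI wild type stood apart in different genes. In 135 genes (0.651% of those tested) both AI amiR-SEAP1 libraries lay at least 2-fold below all 6 others, and in 7 at least 2-fold above. In 99 genes (0.477%) AI wild type lay that far above all others, and in 50 (0.241%) below. The FLW pairs did so in 8 and 5 genes for wild type and in 10 and 1 for amiR-SEAP1. FT, the mobile flowering signal, was among those low in AI amiR-SEAP1, with 2.14 and 1.63 FPKM there, 19.9 and 20.2 in AI wild type, 18.8 and 17.9 in FLW wild type and 11.6 in each FLW amiR-SEAP1 library. FT was chosen here after its values were seen.

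By their medians, the clock lists parted the sets in wild type and hardly in amiR-SEAP1. Of 18 morning and day genes, all tested, the median difference was 1.32 in wild type and 0.00 in amiR-SEAP1, and of 15 afternoon and evening genes, all tested, it was -0.80 and -0.07. The summed FPKM of the morning list was 274.5 in AI wild type and 587 to 657 in the other pairs, and that of the evening list 2045 in AI wild type and 605 to 688 in the others. AI wild type stood at least 2-fold below all other libraries in 10 morning genes and above them in 6 evening genes.

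LHY, a core morning transcription factor of the clock, measured 5.44 and 4.87 FPKM in AI wild type, 39.4 and 41.7 in AI amiR-SEAP1, 42.9 and 42.2 in FLW wild type and 42.3 and 43.7 in FLW amiR-SEAP1. Its partner CCA1 measured 12.7 and 13.1 FPKM in AI wild type and 54.7 to 58.8 in the other 6 libraries. Neither LHY nor CCA1 was called (adjusted p = 0.0519 and 0.0649), and their differences were 2.82 and 2.02 in wild type and 0.08 and -0.01 in amiR-SEAP1. In the evening list PRR5, a repressor of the morning genes, measured 40.4 and 40.0 FPKM in AI wild type and 3.80 to 4.53 elsewhere. ELF4, of the evening complex, measured 28.0 and 29.8 FPKM against 0.882 to 2.18, and FKF1, a blue light receptor gene of day length timing, 14.5 and 13.9 against 0.381 to 0.813. GRP7, an RNA-binding protein gene under clock control, measured 1365 and 1389 FPKM in AI wild type and 199.8 to 230.3 in the others. In each of these genes the AI amiR-SEAP1 libraries lay near the FLW libraries and far from AI wild type.

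The calls among the morning genes were RVE1 and AT3G54500 (LNK2), higher in FLW. Among the evening genes PRR3, FKF1, ELF4, PCL1 (LUX) and TCP11 (CHE) were lower and AT1G20620 (CAT3) was higher. The share called was 11.1% of the morning list and 40.0% of the evening list, against 25.2% over all genes tested. RVE1, which links the clock to auxin, measured 5.63 and 5.06 FPKM in AI wild type, 20.1 and 20.2 in AI amiR-SEAP1, 22.6 and 24.1 in FLW wild type and 24.6 and 25.3 in FLW amiR-SEAP1 (1.12 ± 0.29, adjusted p = 0.0234). The calls of AT3G54500, PRR3, FKF1, ELF4 and PCL1 were each lost on leaving out any 1 of 6 to 8 libraries (adjusted p = 0.0533 to 0.0866), and that of TCP11 without wild-type replicate 4 (adjusted p = 0.051). Several genes had opposite signs, with RVE8 at 1.5 in wild type and -0.30 in amiR-SEAP1 and TOC1, a repressor that peaks at dusk, at -0.80 and 0.22. ZTL, PRR9 and AT5G52660 differed by -0.07, 0.19 and -0.08 and were not called. Some evening genes differed more in amiR-SEAP1 than in wild type, among them TCP11 (-0.84 against -0.21) and BOA (-0.44 against -0.27, not called). In TCP11 the AI amiR-SEAP1 libraries were the highest, at 29.7 and 27.8 FPKM.

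**Figure D4:**
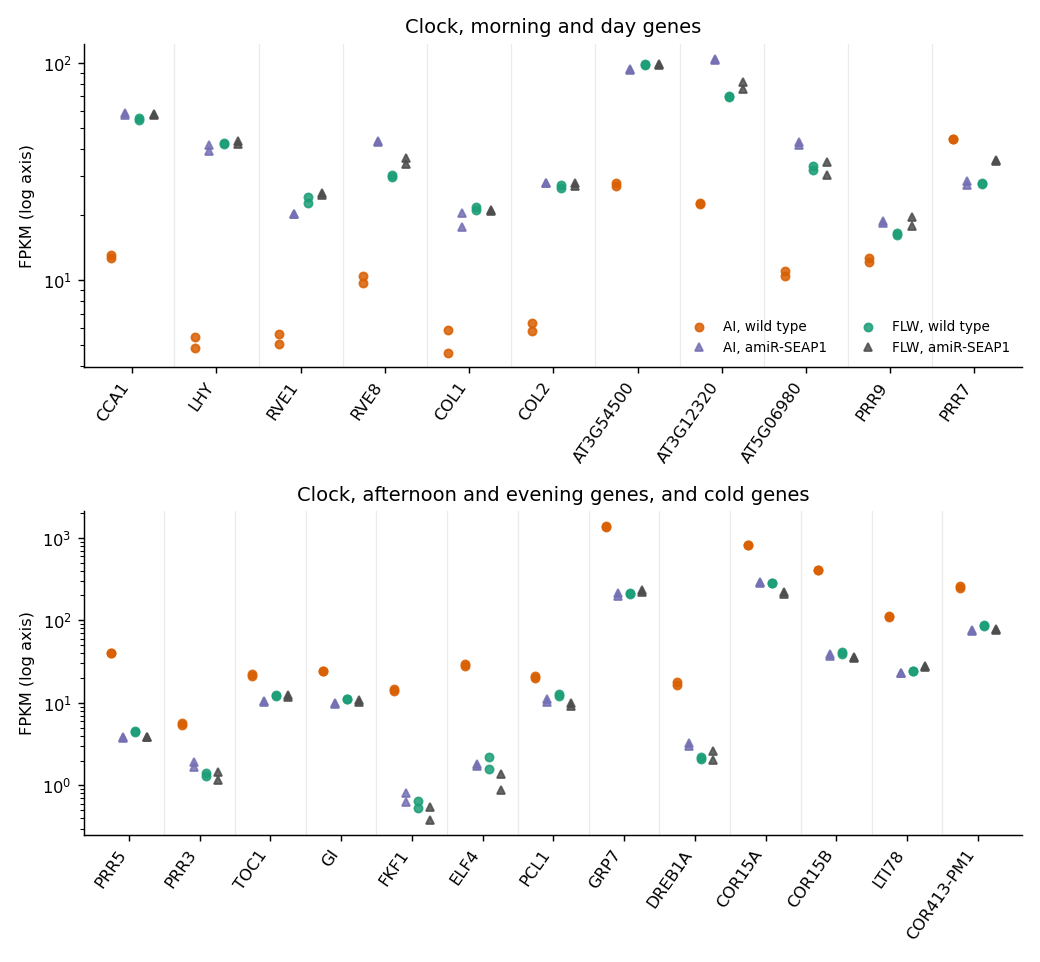
FPKM on a log axis of single libraries for morning and day clock genes (top) and for afternoon and evening clock genes with 5 cold genes at the right (bottom), with 1 point per library. In the top panel AI wild type lies below the other libraries in 9 of the 11 genes by at least 2-fold, and in the bottom panel it lies above them, by up to 3.28 on the log2 scale for COR15B.

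In several cold-regulated genes AI wild type again stood apart. Of 15 genes, 13 were tested, 6 were lower in FLW and 1 higher, and the median was -1.53 in wild type and 0.03 in amiR-SEAP1. Calls made up 53.8% of those tested, against 25.2% over all genes tested. CBF1 and CBF2 were not tested. Summed FPKM was 3690.0 in AI wild type and 1421 to 1738 in the other pairs. COR15B, which protects chloroplast membranes in the cold, measured 412 and 408 FPKM in AI wild type, 37.4 and 39.0 in AI amiR-SEAP1, 41.0 and 39.4 in FLW wild type and 34.6 and 36.4 in FLW amiR-SEAP1 (adjusted p = 0.0499). DREB1A, the transcription factor CBF3, measured 16.5 and 17.7 FPKM in AI wild type and 2.03 to 3.27 elsewhere (adjusted p = 0.0314, but 0.0522 to 0.0597 without any 1 of 6 libraries). KIN2, a cold protein gene that may share reads with KIN1, was lower in both genotypes, at 1017 and 1012 FPKM in AI wild type, 568 and 564 in AI amiR-SEAP1, 312 and 314 in FLW wild type and 285 and 307 in FLW amiR-SEAP1 (-1.31 ± 0.14, adjusted p = 0.000418). KIN1, COR15A and RHL41 (ZAT12) were also lower, and the dehydrin gene COR47 was higher, by 0.60 ± 0.13 (adjusted p = 0.0129). The clock lists moved with the cold list in the same pair of libraries, and their part in the cold values was not tested.

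Genes of light, dark and sugar status were called at shares near that over all genes tested, which was 25.2%. Of 10 light and shade genes, PIF4 and PIL6 (PIF5), growth regulators degraded in light, and ELIP2, a protein gene induced by strong light, were higher and 0 were lower. PIF4 measured 8.64 and 9.15 FPKM in AI wild type, 9.76 and 8.86 in AI amiR-SEAP1, 12.8 and 13.6 in FLW wild type and 20.1 and 19.4 in FLW amiR-SEAP1 (0.77 ± 0.13, adjusted p = 0.00314), with no overlap. Of 6 genes of dark and sugar starvation, DIN10 and AT4G35770 (SEN1) were higher. AT4G35770 measured 0.502 and 0.490 FPKM in AI wild type, 7.73 and 8.65 in AI amiR-SEAP1, 12.7 and 15.3 in FLW wild type and 9.51 and 10.6 in FLW amiR-SEAP1, and its call was lost without any 1 of 7 libraries (adjusted p = 0.0511 to 0.0729). Of 7 hypoxia genes, 6 were tested and AT3G10040 (HRA1) and LBD41, transcription factor genes of the low oxygen response, were higher, by 0.89 (adjusted p = 0.00383) and 0.72 (adjusted p = 0.0195).

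Photosynthesis genes, which mark green tissue, were called in both directions. Of 34, all tested, 11 were higher and 7 lower in FLW, with a median of 0.09. Those higher were 6 genes of photosystem I (PSAD-1, PSAE-1, PSAF, PSAG, PSAH2 and PSAL), 4 genes of the small Rubisco subunit, whose copies may share reads, and PRK, of the Calvin cycle. Those lower included the antenna protein genes CAB1, LHCB3, LHCB5 and LHCB6, with PSAN, PSBQ-2 and GAPA. PSAD-1 measured 603 and 611 FPKM in AI wild type, 661 and 662 in AI amiR-SEAP1, 881 and 895 in FLW wild type and 889 and 913 in FLW amiR-SEAP1 (0.50 ± 0.06, adjusted p = 0.000666). LHCB6 measured 657 and 656 FPKM in AI wild type, 699 and 725 in AI amiR-SEAP1, 537 and 551 in FLW wild type and 567 and 569.7 in FLW amiR-SEAP1 (-0.30 ± 0.06, adjusted p = 0.00712). Both genes had no overlap between the sets, in opposite directions. Of 133 genes of the chloroplast genome, 104 were tested, 31 were higher and 0 lower, and their summed FPKM was 6476 and 7661 in the AI pairs of wild type and amiR-SEAP1 and 7932 and 11000 in the FLW pairs. Of 146 genes of the mitochondrial genome, 31 were tested, 4 were higher and 0 lower. The share called was 52.9% for the photosynthesis list, 29.8% for the chloroplast genome and 12.9% for the mitochondrial genome, against 25.2% over all genes.

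Among jasmonate genes all calls were lower in the FLW set. Of 24 genes, 19 were tested, 7 were lower, 0 higher and 12 not called, and the median was -0.31 in wild type and -0.28 in amiR-SEAP1. Calls made up 36.8% of those tested, against 25.2% over all genes tested, of which 11.8% were called lower. By sign alone, 7 members lay higher in FLW in wild type and 7 in amiR-SEAP1, and 6 had opposite signs in the genotypes. LOX2, a lipoxygenase of jasmonate synthesis in chloroplasts, measured 475 and 471 FPKM in AI wild type, 415 and 410.1 in AI amiR-SEAP1, 232 and 229 in FLW wild type and 268 and 265 in FLW amiR-SEAP1 (-0.83 ± 0.08, adjusted p = 0.000259). All FLW libraries lay below all AI libraries, and the set means were 443 ± 42.9 in AI and 248 ± 25.8 FPKM in FLW. VSP2, a storage protein gene induced by jasmonate, measured 616 and 622, 265 and 262, 302 and 295, and 173 and 172 FPKM in AI wild type, AI amiR-SEAP1, FLW wild type and FLW amiR-SEAP1 (-0.83 ± 0.09, adjusted p = 0.000348), so that AI amiR-SEAP1 lay below FLW wild type. VSP1, the synthesis genes LOX4 and AOC2 and the repressor genes JAZ5 and TIFY7 (JAZ9) were the other members lower. The main transcription factor gene MYC2 differed by -0.05 and AOS, of synthesis, by 0.16, and neither was called. CORI3, a gene induced by coronatine, was among the 30 genes at least 2-fold lower in both genotypes, at 31.8 and 30.7, 32.2 and 30.5, 7.93 and 9.03, and 14.7 and 13.9 FPKM (adjusted p = 0.000362).

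Abscisic acid and drought genes were mixed, with 14 of 16 tested, 3 higher (RD26, HAB1 and ERD1) and 2 lower (RD22 and P5CS1). ERD1, a chloroplast protease subunit gene, measured 33.7 and 34.5 FPKM in AI wild type, 32.2 and 31.2 in AI amiR-SEAP1, 47.4 and 46.4 in FLW wild type and 46.9 and 49.2 in FLW amiR-SEAP1 (0.52 ± 0.06, adjusted p = 0.000756). Its sets did not overlap. P5CS1, of proline synthesis, was lower by -0.84 ± 0.22 (adjusted p = 0.0254), mostly in wild type (-1.42, against -0.26). Of 8 touch and rapid stress genes, the calmodulin-like gene TCH3 and the defence regulator WRKY33 were higher and TCH2 lower. TCH3 measured 15.3 and 15.2, 23.3 and 23.5, 30.5 and 31.2, and 37.1 and 37.5 FPKM in AI wild type, AI amiR-SEAP1, FLW wild type and FLW amiR-SEAP1 (0.81 ± 0.08, adjusted p = 0.000166). Of 18 salicylate defence genes, 12 were tested, with PR5 lower (adjusted p = 0.0141) and PCC1 higher (adjusted p = 0.0336, but 0.054 to 0.0603 without any 1 of 6 libraries). Of 15 heat shock genes, 8 were tested, with MBF1C higher (adjusted p = 0.0446) and GolS1 lower (adjusted p = 0.0438), and each call was lost without any 1 of 6 or 7 libraries (adjusted p = 0.0506 to 0.0809). The 7 heat shock genes that were not tested included the small chaperone gene HSP21. Over all genes tested the share called was 25.2%. It was 35.7% for abscisic acid and drought, 37.5% for touch and rapid stress, 16.7% for salicylate defence and 25.0% for heat shock.

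Genes of nutrient status were mixed. Of 18, 14 were tested, with 2 higher, NIA1 and CSD2, and 6 lower, FSD1, SPX1, NIR1, ATSDI1, LSU1 and LSU2. Calls made up 57.1% of those tested, against 25.2% over all genes tested. NIA1, a nitrate reductase gene, measured 17.3 and 18.1 FPKM in AI wild type, 13.2 and 13.0 in AI amiR-SEAP1, 27.9 and 28.6 in FLW wild type and 28.4 and 28.5 in FLW amiR-SEAP1 (0.86 ± 0.09, adjusted p = 0.000381), whereas NIR1, of the next step, was lower by -0.44 ± 0.07 (adjusted p = 0.00256). The sulphur deficiency genes ATSDI1, LSU1 and LSU2 were lower by -0.89, -1.17 and -0.87. LSU1 measured 3.27 and 3.65, 3.68 and 3.88, 0.978 and 0.902, and 0.781 and 1.64 FPKM, and it was the 1 listed gene other than small nucleolar RNA genes at least 2-fold lower in both genotypes. SPX1, a phosphate sensor gene induced by phosphate shortage, was lower by -0.95 ± 0.13 (adjusted p = 0.00145). The iron deficiency gene bHLH38 was not tested and measured 2.75 and 3.26 FPKM in AI wild type and at most 0.147 in any other library.

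Of 18 cell cycle and replication genes, all tested, 2 were higher (CDKB2;1 and AUR1) and 5 lower (CDKB1;1, PCNA1, TSO2, CYCA1;1 and CDC45), by no more than 0.39 in size. PCNA1, the sliding clamp of DNA replication, measured 38.8 and 38.6 FPKM in AI wild type, 38.9 and 41.6 in AI amiR-SEAP1, 29.7 and 28.6 in FLW wild type and 30.02 and 31.8 in FLW amiR-SEAP1 (-0.38 ± 0.07, adjusted p = 0.00595). The sets of PCNA1 were apart by about the same amount in both genotypes. Of 7 secondary wall genes, CESA4, a cellulose synthase subunit gene, was the 1 called, lower by -0.28 ± 0.06 (adjusted p = 0.00887). Calls made up 38.9% of the cell cycle and replication list and 14.3% of the secondary wall list, against 25.2% over all genes tested.

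Genes lower in FLW in both genotypes were short. The 30 genes at least 2-fold lower had a median length of 857 bases in the reference, with 21 under 1000 bases, against 1855 bases for the 186 of the 190 higher genes that have a length and 2345 over all genes tested with a length. The 30 include AT2G24945 and AT3G09440, in which 1 library of each FLW pair carries the difference (adjusted p = 0.491 and 0.496), and 28 of the 30 were past the FDR. The part of transcript length in the result was not tested. Of 71 small nucleolar RNA genes, which guide chemical changes of ribosomal RNA, 44 were tested, 12 were lower and 0 higher. Their median was -0.47 in wild type and -0.45 in amiR-SEAP1, and the share called was 27.3%, against 25.2% over all genes tested. AT4G01060, a small MYB gene with the synonym ETC3, had the largest lower difference under the naming rule, at 24.2 and 23.8 FPKM in AI wild type, 12.1 and 12.5 in AI amiR-SEAP1, 4.05 and 5.04 in FLW wild type and 3.52 and 3.83 in FLW amiR-SEAP1 (-1.84 ± 0.17, adjusted p = 0.000183). MSRB5, of the methionine sulfoxide reductase family, was lower by -1.43 ± 0.11 (adjusted p = 5.27e-05) and the noncoding gene AT1G79075 by -1.71 ± 0.11 (adjusted p = 2.15e-05), both in each genotype by at least 2-fold. UMAMIT25, of an amino acid transporter family, OEP6 of the chloroplast envelope, RCI2A, a small membrane protein gene induced by cold, and AT4G16146 differed by -1.93, -2.52, -2.23 and -2.62 in wild type and by -0.94, -0.74, -0.54 and -0.37 in amiR-SEAP1. GRP3S differed by -0.74 in wild type and -2.04 in amiR-SEAP1. AT5G39240, AT2G40205, AT5G05370, AT1G73325 and AT2G25210, at -1.72 to -1.35, complete the 15 genes with CORI3 and DREB1A. Of the 134 genes chosen by the naming rule, 39 overlap another gene in the reference, and whether the counting used strand is not given in the sources used here.

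**Figure D5:**
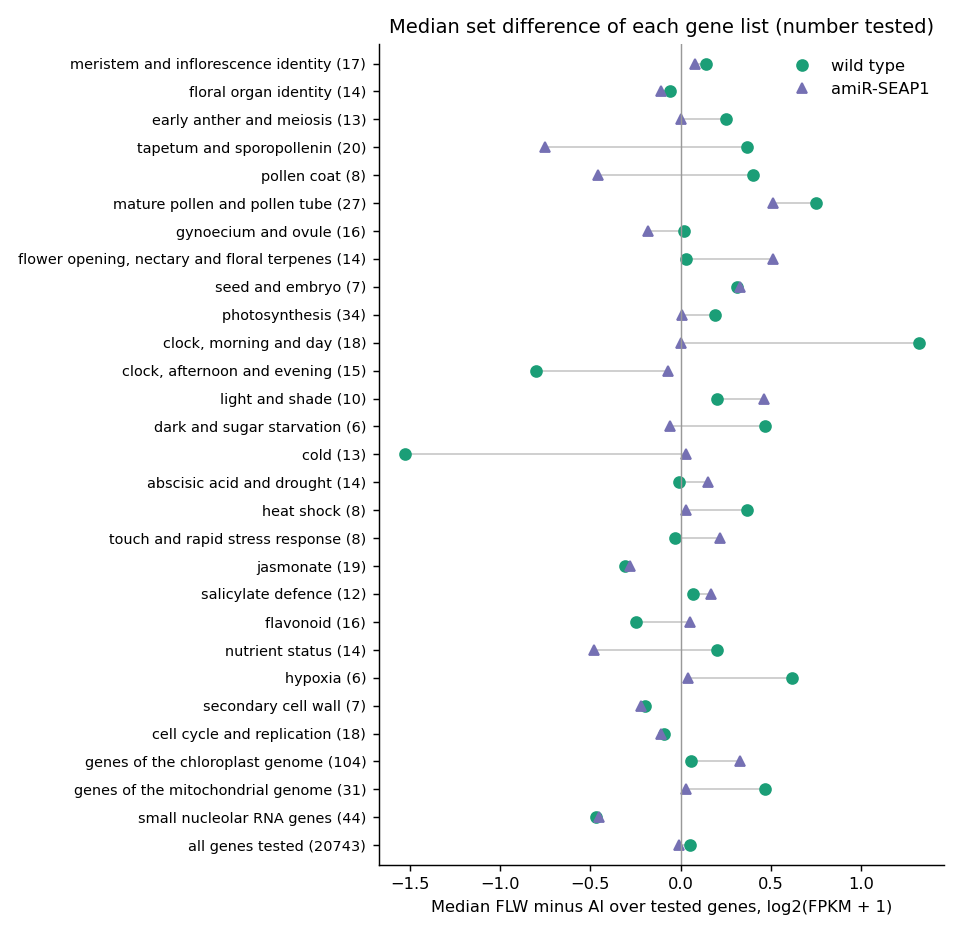
Median FLW minus AI, in log2(FPKM + 1), over the tested genes of each list, with the number tested in parentheses, for wild type (circles) and amiR-SEAP1 (triangles). Mature pollen genes lie above 0 and jasmonate and small nucleolar RNA genes below 0 in both genotypes, whereas the clock and cold lists depart from 0 in wild type and the tapetum list lies on opposite sides.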

How the data were processed

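mRNA was sequenced from inflorescences in 8 libraries, 4 in each set. The values deposited by the authors are FPKM per gene, per the file headers. HISAT2 and the TAIR10 genome are named in the submitters' processing notes, with no version of HISAT2. Which program computed FPKM, on which annotation and with which strand setting, is not given in the sources used here. Small RNA libraries of the series were not used, and no per-sample column of the tables was left unused. Sets were taken from the column headers and genotypes from the labels.

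FPKM was used as log2(FPKM + 1), on which the fold changes of low genes are understated, for genes averaging 1 FPKM or more. A count test had been planned for the case of counts, and since the values were FPKM, limma 3.58.1 in R 4.3.3 was used. Its terms were set and genotype, with a correlation of 0.7 within a pair. Tests were two-sided, with Benjamini-Hochberg adjustment over all genes tested, at 0.05. The procedure was tested on simulated data. Read depth itself is unknown, and relative depth differed by at most a factor of 1.16, so no counting intervals are given.

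Gene names and lengths came from the RefSeq table of TAIR10.1, which matched 28932 of 33610 IDs and all but 341 of those tested. Among 25 gene lists with 406 loci, 353 loci were tested. The members and lists were chosen with earlier results of these data known. Named genes were the 15 higher and 15 lower with the largest difference among calls with a mean of at least 5 FPKM, no overlap between the 4 AI and the 4 FLW libraries and the same sign in both, and up to 4 per list. Clock genes may all be given. The other list members given with values, among them AMS, CYP703A2, TIP1;3, CYP71B31 and COR15B, and the genes in no list were chosen after their values were seen. A planned search of promoters for motifs was not run, since promoter sequences were not used here. Alternatives were the treatment of pairs, the genotype term, the pseudocount, the filter, the scaling, the variance trend, leaving out each library and, chosen after seeing the data, gene length and removal of pollen and organelle genes.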

Additional observations from a re-analysis of the deposited data

Results flagged for a closer look

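In 3 genes a single library was separated from the other 3 of its genotype by most of their range. AT1G75920 measured 23.69 FPKM in that library of wild type and 25.2 to 25.5 in the others. In amiR-SEAP1, COL1 measured 17.6 FPKM against 20.4 to 20.9, and COL2 27.05 FPKM against 27.96 to 28.08. The gaps of AT1G75920 and COL2 are small.

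In 7 gene lists the mean set difference had opposite signs in wild type and amiR-SEAP1, with all libraries of each genotype on their own side, and this difference between genotypes was not tested. On the log2 scale, in wild type and amiR-SEAP1, it was 0.24 and -0.06 for early anther and meiosis genes, 0.40 and -0.76 for tapetum genes, 0.31 and -0.56 for pollen coat genes and 0.02 and -0.10 for gynoecium genes. For genes of flower opening it was -0.22 and 0.88, for abscisic acid genes -0.21 and 0.22 and for flavonoid genes -0.09 and 0.52.

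The same was seen in single genes among the 134 named, again not tested. Over all genes tested it was seen in 3492 (16.8%). Clock genes were named whether called or not, whereas other named genes were mostly calls, and 0 genes past the FDR had opposite signs. The number of clock genes here therefore cannot be compared with that of other lists. ACOS5, of sporopollenin synthesis, differed by 0.05 in wild type and -1.19 in amiR-SEAP1. Among morning and day clock genes, RVE8 differed by 1.5 and -0.30, AT3G12320 by 1.60 and -0.40, AT5G06980 by 1.52 and -0.37, AT1G69570 by 1.15 and -0.10, PRR7 by -0.66 and 0.33 and AT1G18330 by -0.07 and 0.23. Among evening genes, GRP7 differed by -2.69 and 0.13, GI by -1.07 and 0.10, AT4G39260 by -0.99 and 0.49, TOC1 by -0.80 and 0.22, ELF3 by -0.56 and 0.35 and LKP2 by 0.12 and -0.07.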

How the results depend on the processing

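The number of calls depended on how the libraries of a pair were treated. With the 8 libraries taken as independent, 5451 genes were higher and 4646 lower in FLW, and with pairs averaged before the test 0 and 0, where 4 values and fewer degrees of freedom remain. Without a genotype term the counts were 594 and 454, since the genotype difference then adds to the spread. With 1 library left out they ranged from 2306 to 2452 higher and from 1988 to 2128 lower. Genes at least 2-fold apart in both genotypes ranged from 189 to 201 higher and from 27 to 32 lower. With a pseudocount of 0.1, 58 genes were at least 2-fold lower in both, and among genes of at least 1000 bases, an alternative chosen after seeing the data, 9 were. The cause was not tested. Of 134 named genes, 103 calls were lost with pair means and 62 without a genotype term. Among the named genes, no called gene reversed its direction under any alternative run, and the other calls were not checked for this. Of the 103 named genes that were called, 21 lost the call when at least 1 library was left out. Of all calls, 53.3% were higher, against 49.5% with quantile normalization, 61.7% with equal FPKM sums and 45.2% with median centring. No paired analysis was possible because the FLW set holds replicates 1 and 2 and the AI set replicates 3 and 4. Depth is unknown, so what counting error limits cannot be stated per gene.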

Other observations

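A few genes, chosen after their values were seen, departed from the close match within pairs. AT2G24945 measured 3.82 and 33.6 FPKM in the FLW wild-type libraries and 35.4 and 5.56 in the FLW amiR-SEAP1 libraries, against 37.1 to 47.4 in the AI libraries. AT3G09440 measured 91.5 and 11.5 FPKM in FLW wild type and 13.6 and 92.7 in FLW amiR-SEAP1, against 83.9 to 142.5 in the AI libraries. XPL1 measured 38.9 and 66.2 FPKM in FLW wild type and at most 0.757 in the other 6 libraries.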
